A study of Mus musculus with 2 samples.

Results

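Transcripts of 10 apolipoprotein genes, Apoa1, Apoa2, Apoa4, Apoa5, Apob, Apoc1, Apoc3, Apoc4, Apoe and Apoh, were followed in total RNA sequencing of the mouse adrenal gland. The members were taken by symbol from 55536 annotated genes, and all 10 were found. They were selected on the measured values described here: the question was which of them keep expression in a library that holds almost no liver transcripts, as read from a low level of Alb, the gene of serum albumin. The difference between the libraries is therefore given as a description, without a test. The series has 1 group of 2 libraries, replicate 2 and replicate 1, both from adrenal tissue of male B6CASTF1/J mice, an F1 hybrid strain, aged 25 days, and the labels name no treatment. Each library was made from 300 ng of RNA with a directional kit after ribosomal RNA reduction and carries ERCC spike-ins. Whether they come from separate animals is not settled: by the biosample text replicate 2 is animal 4 and replicate 1 animal 3, by the library text both are animal 3, and the donor label is shared. The spread between the libraries may therefore be technical in part.

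Apolipoproteins coat lipoprotein particles, keep their lipid soluble and present them to enzymes and receptors. Most circulating apolipoproteins come from the liver and, in part, from the intestine, whereas Apoe is also made by macrophages, astrocytes and steroid-producing cells. The adrenal cortex takes up cholesteryl ester from lipoproteins for steroid synthesis, in rodents largely through the HDL receptor encoded by Scarb1. Apoe and Apob are the ligands of lipoprotein receptors, Apoa1 and Apoa2 are the main proteins of HDL, and Apoc1, Apoc3, Apoc4 and Apoa5 modify lipolysis or uptake. Apoh, also called beta-2-glycoprotein I, binds phospholipid and takes part in the regulation of coagulation.

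The libraries differed in tissues other than the adrenal gland. Alb stood at 11949 TPM (transcript abundance scaled to a fixed total per library) in replicate 2 and at 16.3 TPM in replicate 1. The liver list held 18 genes, and 17 of them were at least 10-fold higher in replicate 2, where 4.20% of all genes compared were. The 18 genes summed to 25033 TPM in replicate 2, against 474 TPM in replicate 1. Replicate 1 in turn held skeletal muscle transcripts: its level of all 6 muscle genes exceeded that of replicate 2 by 2-fold or more, where 3.93% of all genes compared were as much lower in replicate 2, and their summed level was 1.70 TPM in replicate 2, against 1088 TPM in replicate 1. All 15 steroidogenic genes and all 6 chromaffin genes reached 1 TPM in both libraries, so both carried the markers of the labelled tissue. The estimated counts on annotated genes summed to 34835147 in replicate 2 and 34987819 in replicate 1.

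Apoe, Apoc1 and Apoc4 were the members that stayed well above 1 TPM in replicate 1, and the other 7 stood between 0.02 and 3.53 TPM there. These 3 genes lie together on chromosome 7, all on the minus strand, within 21106 bases. All coordinates are of build mm10 with annotation M21. The bases before the annotated starts are shown for 2 of the chromosome 7 genes and for 3 genes that were low in replicate 1, so that the groups can be set side by side. They are the reference sequence of RefSeq (GRCm38.p6), 5′ to 3′ on the strand of the gene, not the alleles of these hybrid mice. Each window begins 250 bases before the RefSeq start and stops where the outermost annotated transcript begins. Capitals mark the motifs searched for: TATAAA (the TATA box), GGGCGG (the GC box), CAAGGTC (a half-site known for Nr5a1) and AAAGTCC (a half-site known for Hnf4a), on both strands. The Apoe window is chr7:19699189-19699438 (minus strand), that of Apoc4 is chr7:19681480-19681710 (minus strand), that of Apoa1 is chr9:46228380-46228579 (plus strand), that of Apoa2 is chr1:171224804-171225053 (plus strand) and that of Apob is chr12:7977427-7977647 (plus strand).
Apoe: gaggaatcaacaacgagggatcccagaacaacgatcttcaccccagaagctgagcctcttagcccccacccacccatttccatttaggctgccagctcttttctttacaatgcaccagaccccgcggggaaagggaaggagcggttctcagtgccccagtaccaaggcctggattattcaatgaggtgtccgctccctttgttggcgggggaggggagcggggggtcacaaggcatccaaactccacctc
Apoc4: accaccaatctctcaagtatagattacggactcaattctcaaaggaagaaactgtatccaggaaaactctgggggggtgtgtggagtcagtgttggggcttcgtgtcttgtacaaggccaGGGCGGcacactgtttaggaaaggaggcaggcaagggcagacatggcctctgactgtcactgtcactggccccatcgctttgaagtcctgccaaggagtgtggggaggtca
Apoa1: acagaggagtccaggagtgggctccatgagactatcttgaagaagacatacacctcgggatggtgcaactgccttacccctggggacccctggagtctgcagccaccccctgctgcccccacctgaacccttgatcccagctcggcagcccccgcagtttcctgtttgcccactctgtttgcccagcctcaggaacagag
Apoa2: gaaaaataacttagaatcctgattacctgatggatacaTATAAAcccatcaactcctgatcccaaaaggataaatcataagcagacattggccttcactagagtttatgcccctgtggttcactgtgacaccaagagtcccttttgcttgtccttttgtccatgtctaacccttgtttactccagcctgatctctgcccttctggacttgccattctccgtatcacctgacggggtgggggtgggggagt
Apob: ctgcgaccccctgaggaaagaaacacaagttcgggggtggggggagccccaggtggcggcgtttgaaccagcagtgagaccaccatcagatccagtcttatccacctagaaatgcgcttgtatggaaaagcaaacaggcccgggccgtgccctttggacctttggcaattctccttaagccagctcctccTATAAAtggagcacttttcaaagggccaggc

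RefSeq windows were matched for 8 of the 10 members. In the full 250 bases before the RefSeq start, TATAAA was found in 3 of the 8 (Apoa2, Apoa5 and Apob), and 12.4% of all 32851 mouse windows hold it. It began 60 bases before the RefSeq start of Apob, 56 bases before that of Apoa5 and 212 bases before that of Apoa2. GGGCGG was found in Apoc4 alone, 130 bases before the start, and 32.7% of all windows hold it. CAAGGTC was found in Apoa4 alone, on the opposite strand and 115 bases before the RefSeq start, and 3.32% of all windows hold it. The annotated transcript of Apoa4 begins 148 bases before that RefSeq start, so this hit lies within the transcript and not upstream of it. AAAGTCC, which 3.58% of all windows hold, was not found in a member's window. None of the motifs found overlapped another. The letters of the Apoe and Apoa1 windows held none of these motifs. The RefSeq start of Apoe lies 180 bases upstream of Apoe-209, its main transcript by 1 of the 2 deposited quantifications. Apoe-205, its main transcript by the other, starts further downstream. The RefSeq start of Apoa5 lies 445 bases upstream of Apoa5-201, its highest transcript by the former. The bases directly before those transcript starts were not searched.

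Apoe, the ligand that carries remnant lipoproteins to receptors such as Lrp1, was the highest member in both libraries by the first of the 2 deposited quantifications, whose values are given unless the second is named. By the second it was next to highest in both, after Apoa1 in replicate 2 and after Apoc1 in replicate 1. Its gene (ENSMUSG00000002985.16) spans chr7:19696109-19699188 and its longest annotated coding sequence encodes a precursor of 311 residues; residue numbers of the other members are likewise of the longest one. Apoe stood at 2871 TPM in replicate 2, where it was the 3rd highest nuclear protein-coding gene, and at 304 TPM in replicate 1, where it ranked 116th. The values rest on 100928 estimated counts in replicate 2 and 10864 in replicate 1. After TMM scaling the ratio of replicate 2 over replicate 1 was 11.0-fold (log2 ratio 3.45, 95% exact Clopper-Pearson interval 3.43 to 3.48). The intervals given here cover counting error only, and with 1 library on each side there is no residual spread to test against. The 10-fold mark depends on the scaling for Apoe, since the ratio of the deposited TPM values was 9.44-fold.

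Apoc1, a small surface protein that slows remnant uptake and activates the enzyme encoded by Lcat, was the member with the smallest ratio. Its gene (ENSMUSG00000040564.14, chr7:19689481-19692660) begins 6528 bases downstream of the start of Apoe and encodes a precursor of 88 residues. Apoc1 stood at 1156 TPM in replicate 2, against 241 TPM in replicate 1, from 13126 and 2757 estimated counts in replicate 2 and replicate 1. The ratio was 5.62-fold (log2 ratio 2.49, interval 2.43 to 2.55), which made Apoc1 the single member under 10-fold. Apoe was 2.48 times the level of Apoc1 in replicate 2 and 1.26 times in replicate 1, on the length-scaled TPM of the first quantification. A second deposited quantification gave 1.75 times in replicate 2 and 0.888 times in replicate 1, so the order of the pair in replicate 1 was not the same by both.

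Apoc4, a minor protein of VLDL, was the lowest of the 3 and had nearly the same ratio as Apoe. Its gene (ENSMUSG00000074336.5, chr7:19678083-19681479) encodes a precursor of 124 residues. Apoc4 stood at 251 TPM in replicate 2, against 23.1 TPM in replicate 1, from 3808.8 and 362.97 estimated counts in replicate 2 and replicate 1. The ratio was 12.4-fold (log2 ratio 3.63, interval 3.47 to 3.79). Apoc4 overlaps the annotated gene Gm44805 on the same strand, and the authors' posterior SD of the Apoc4 count was 0.54 counts in replicate 2 and 0.23 in replicate 1, so sharing of reads between the pair moved its value little.

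The HDL proteins held 2 of the 3 highest levels in replicate 2 and stood at or under 3.53 TPM in replicate 1. Apoa1, the main HDL protein and an activator of the Lcat enzyme (ENSMUSG00000032083.8, chr9:46228580-46230466, plus strand, 264 residues), stood at 1962 TPM in replicate 2, against 3.53 TPM in replicate 1. It had 61566 estimated counts in replicate 2 and 113 in replicate 1, a log2 ratio of 9.33 (interval 9.06 to 9.61). Apoa2, the second most abundant HDL protein (ENSMUSG00000005681.12, chr1:171225054-171226379, plus strand, 102 residues), stood at 2362 TPM in replicate 2, against 2.97 TPM in replicate 1. Its log2 ratio was 9.84 (interval 9.40 to 10.32). Apoa4, a protein of chylomicrons and HDL made by intestine and liver (ENSMUSG00000032080.6, chr9:46240696-46243459, plus strand, 395 residues), was the lowest member in both libraries, at 15.9 TPM in replicate 2, against 0.02 TPM in replicate 1. A single count in replicate 1 set against 925 in replicate 2 left its log2 ratio of 10.09 with an interval from 7.61 to 15.40.

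Apob, the structural protein of VLDL, LDL and chylomicrons, is by far the longest member. Its gene (ENSMUSG00000020609.14, chr12:7977648-8016835, plus strand) encodes 4505 residues in 29 exons. Apob had the most counts of all members in replicate 2, 134921 against 243 in replicate 1. Per length this came to 503 TPM in replicate 2, against 0.76 TPM in replicate 1, a log2 ratio of 9.36 (interval 9.17 to 9.54). Apoh (ENSMUSG00000000049.11, chr11:108343354-108414396, plus strand, 345 residues) stood at 488 TPM in replicate 2, against 0.75 TPM in replicate 1, with a log2 ratio of 9.57 (interval 9.04 to 10.16). Apoh overlaps Prkca on the opposite strand, a gene at 4.26 TPM in replicate 2, against 2.95 TPM in replicate 1. The sources used here do not state whether counting used strand.

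The regulators of lipoprotein lipase on chromosome 9 had the smallest ratios outside chromosome 7. Apoc3, which inhibits lipoprotein lipase (ENSMUSG00000032081.10, chr9:46232933-46235636, minus strand), stood at 661 TPM in replicate 2, against 2.95 TPM in replicate 1. Its log2 ratio was 8.04 (interval 7.61 to 8.51). Apoa5, which promotes triglyceride lipolysis (ENSMUSG00000032079.12, chr9:46268633-46271919, plus strand, 368 residues), stood at 125 TPM in replicate 2, against 0.39 TPM in replicate 1. It had 5920 estimated counts in replicate 2 and 18 in replicate 1, with a log2 ratio of 8.60 (interval 7.94 to 9.36) that overlapped the interval of Apoa1.

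**Figure D1:**
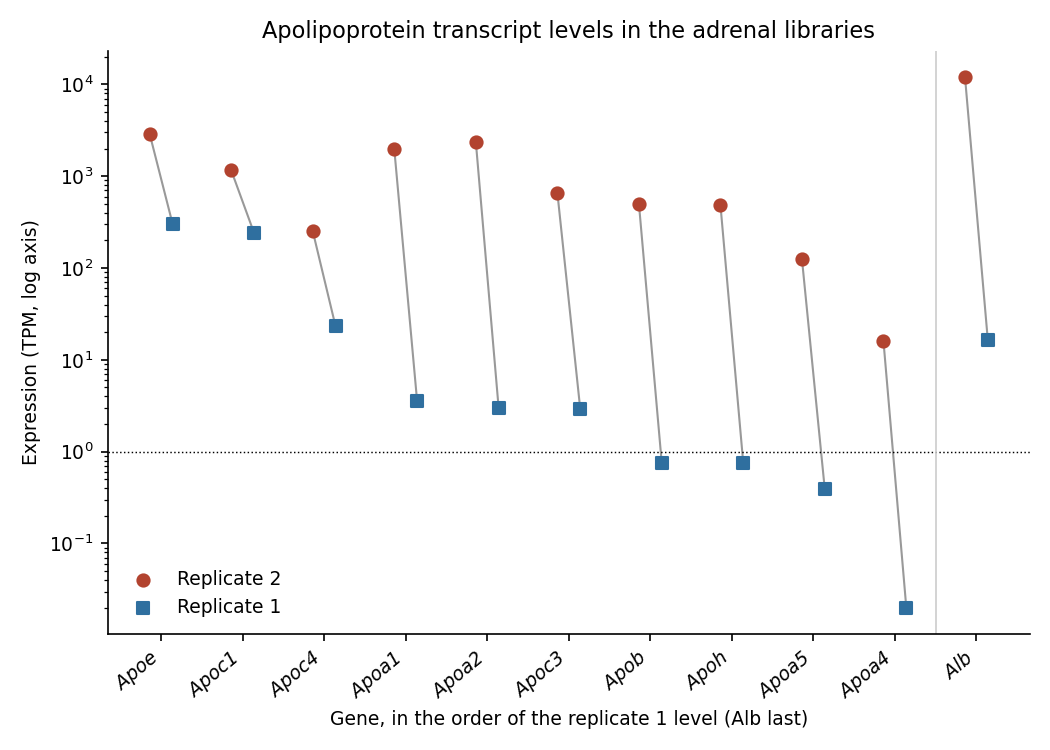
Expression of the 10 members and of Alb in TPM (log axis) in replicate 2 (circles, left) and replicate 1 (squares, right), with 1 library per point and a dotted line at 1 TPM. Apoe, Apoc1 and Apoc4 stand at 304, 241 and 23.1 TPM in replicate 1, and the other members are at or under 3.53 TPM there.

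All 10 members had at least 10 counts over both libraries, and 6 of 10 reached 1 TPM in both. At 5 TPM in both libraries the 3 chromosome 7 genes were left by the first quantification. By the second, Apoa1 (8.90 TPM in replicate 1), Apoc3 (7.59) and Apoa2 (6.73) passed 5 TPM in both as well. Nearest to the mark of 1 TPM in replicate 1 were Apoc3 at 2.95 TPM above it and Apob at 0.76 TPM below it. All 10 members were at least 2-fold higher in replicate 2, where 10.2% of the 19801 genes with at least 10 counts were. At 10-fold the count was 9 of 10 members, all but Apoc1, against 4.20% of all genes compared. At 100-fold it was 7 of 10, all but the chromosome 7 genes, against 2.62%. The median log2 ratio was 8.96 over the members and -0.01 over all genes compared. Since these ratios chose the members, the counts carry no weight of their own. In bulk tissue, fewer cells of a type and less RNA per cell cannot be told apart.

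The ratios of the members were set beside those of marker lists for the tissues and cells that could be in the sample. The other 7 members had log2 ratios from 8.04 to 10.09, and 14 of the 18 liver genes were at or above the lowest of these. Alb had a log2 ratio of 9.74, which lay within the counting intervals of Apoa2, Apoa4 and Apoh and above those of Apoa1, Apoa5, Apob and Apoc3. The 4 liver genes with smaller ratios were Trf, Tat, Cyp2e1 and Pck1. Cyp2e1, a cytochrome P450, had a log2 ratio of 3.34 (interval 3.29 to 3.38), close to that of Apoe, at 718 TPM in replicate 2, against 83.4 TPM in replicate 1. Pck1, the gluconeogenic enzyme that fat and kidney also make, had a log2 ratio of 0.29, at 353 TPM in replicate 2, against 334 TPM in replicate 1. Tat, Cyp2e1 and Pck1 were named after their values were seen.

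**Figure D2:**
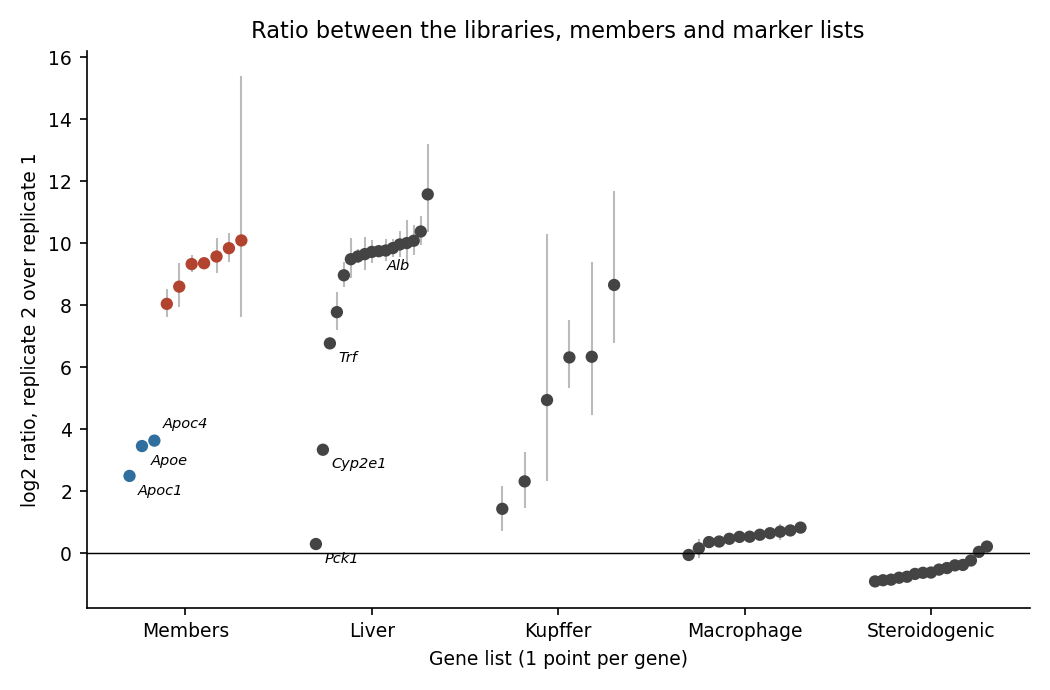
log2 ratio of replicate 2 over replicate 1 after TMM scaling for each gene of 5 lists, with vertical lines for the 95% counting interval. In the member list the 3 chromosome 7 genes (blue) lie between 2.49 and 3.63 and the other 7 (red) between 8.04 and 10.09. Cyp7a1, with no count in replicate 1, is not drawn.

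Relative to Alb the 7 members outside chromosome 7 and the 3 on it differed. Between libraries whose Alb counts differed 858-fold after TMM scaling, the level per Alb of the other 7 members in replicate 1 was 0.921 to 3.27 times that in replicate 2 by the first quantification, and 0.644 (Apoa4) to 4.61 times (Apoa5) by the second. Apoa1, for example, stood at 164 TPM per 1000 TPM of Alb in replicate 2 and at 216 in replicate 1. Apob stood at 42.1 per 1000 in replicate 2 and at 46.6 in replicate 1. Apoc3 stood at 55.3 per 1000 in replicate 2 and at 181 in replicate 1, the furthest of these by the first quantification. Apoa5 was the furthest by the second, at 7.73 per 1000 in replicate 2 and 35.6 in replicate 1. Apoe stood at 240.3 TPM per 1000 TPM of Alb in replicate 2 and at 18646 in replicate 1, which was 77.6 times as much. Apoc1 stood at 96.8 per 1000 in replicate 2 and at 14761 in replicate 1, 153 times as much. Apoc4 stood at 21.04 per 1000 in replicate 2 and at 1417 in replicate 1, 67.3 times as much. Such a rise was not particular to these genes. Any gene whose level fell less than that of Alb from replicate 2 to replicate 1 rises per Alb. Hsd3b1 of the steroidogenic list, for example, stood at 169 per 1000 in replicate 2 and at 208784 in replicate 1. The rise of the 3 genes thus restates that their levels fell less than that of Alb. In the liver list Cyp2e1 rose 85.1 times per Alb from replicate 2 to replicate 1, Pck1 693 times and Trf 7.17 times. Apoc2, which lies beside Apoc4 and is not a member, rose 8.85 times. By log2 ratio, 14 of the 18 liver genes were at or above the lowest of the other 7 members. Carried over by arithmetic, the proportion to Alb of replicate 2 would give replicate 1 an Apoe level of 3.92 TPM, 1.29% of the 304 TPM listed there. The same arithmetic gives 1.58 TPM for Apoc1, 0.656% of its level, and 0.343 TPM for Apoc4, 1.49% of its level. It assumes a fixed proportion to Alb, which Cyp2e1, Pck1, Trf and Apoc2 did not keep, so it tells no source of the transcripts. Which cells hold these transcripts was not tested.

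**Figure D3:**
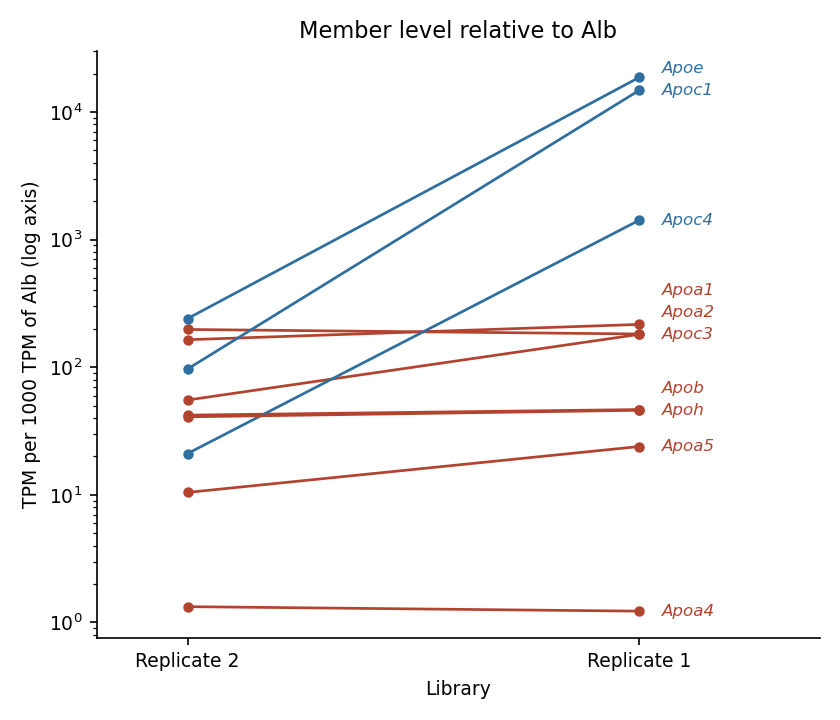
Level of each member in TPM per 1000 TPM of Alb (log axis, first quantification) in replicate 2 (left) and replicate 1 (right), 1 line per gene. The lines of the 7 members in red change by 0.921 to 3.27 times, while those of Apoe, Apoc1 and Apoc4 in blue climb 77.6, 153 and 67.3 times from replicate 2 on the left to replicate 1 on the right.

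The make-up of the apolipoprotein transcripts therefore differed between the libraries. The members held 1.04% of all TPM in replicate 2 and 0.0579% in replicate 1, a mean of 0.549% ± 0.694 (SD, n = 2). Apoe, Apoc1 and Apoc4 together made up 41.2% of the members' TPM in replicate 2 (4279 TPM) and 98.0% in replicate 1 (568 TPM). The other 7 members summed to 6117 TPM in replicate 2, against 11.4 TPM in replicate 1. Apoe alone was 27.6% of the members' TPM in replicate 2 and 52.5% in replicate 1. Apoc1 was 11.1% in replicate 2 and 41.6% in replicate 1. By the first quantification the order of levels in replicate 2 was Apoe, Apoa2, Apoa1, Apoc1, Apoc3, Apob, Apoh, Apoc4, Apoa5 and Apoa4. In replicate 1 it was Apoe, Apoc1, Apoc4, Apoa1, Apoa2, Apoc3, Apob, Apoh, Apoa5 and Apoa4. The second quantification changed the order among near members: in replicate 2 it put Apoa1 first, at 4822 TPM, then Apoe at 4580.1 TPM and Apoa2 at 3983 TPM, and in replicate 1 it put Apoc1 at 578 TPM before Apoe at 513 TPM and Apoc3 before Apoa2. In both libraries it put Apoh before Apob. Over both libraries the SD exceeded the mean for 9 of the 10 members, all but Apoc1 (n = 2). All 9 gaps between neighbours in the order of mean levels were under the larger SD of the pair. That SD holds the difference between the libraries, which went the same way for all members. It therefore does not say whether neighbours differ within a library.

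**Figure D4:**
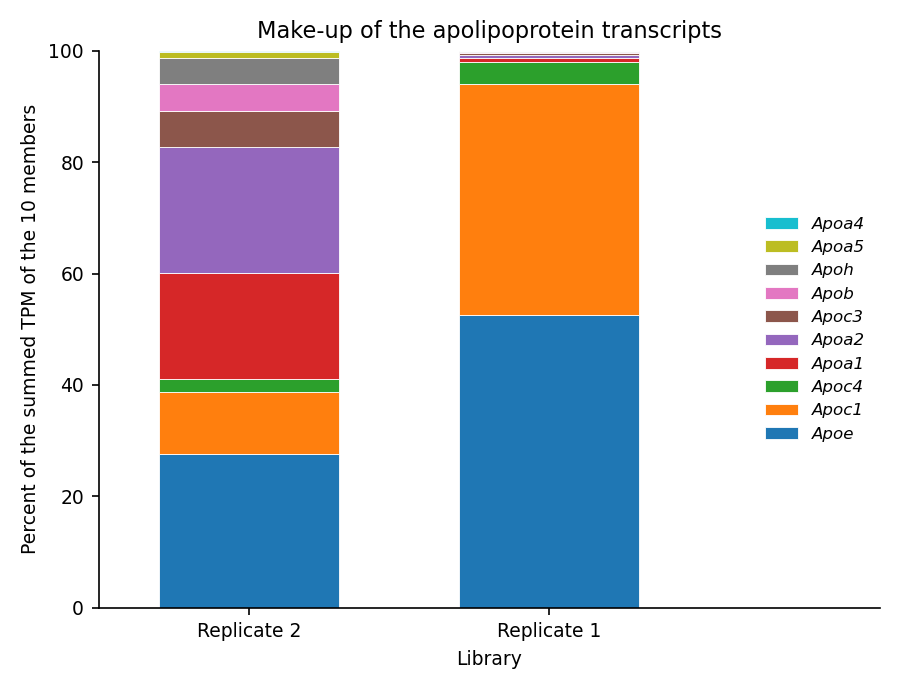
Percent of the summed TPM of the 10 members carried by each gene in replicate 2 (left) and replicate 1 (right). Apoe, Apoc1 and Apoc4 at the foot of the bars fill 41.2% of the replicate 2 bar and 98.0% of the replicate 1 bar.

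The genes that flank the clusters, named by position, had log2 ratios near 0, whereas the members on chromosome 7 had log2 ratios from 2.49 to 3.63. On chromosome 7 the gene before Apoe, Tomm40, a subunit of the mitochondrial import pore, stood at 35.5 TPM in replicate 2, against 38.8 TPM in replicate 1 (log2 ratio 0.06). The next gene after Apoc2, Clptm1, stood at 38.8 TPM in replicate 2, against 51.3 TPM in replicate 1 (log2 ratio -0.02). Apoc2, the cofactor of lipoprotein lipase, lies 141 bases beyond Apoc4 and is not among the members. It stood at 67.0 TPM in replicate 2, against 0.81 TPM in replicate 1, with a log2 ratio of 6.54 (interval 5.79 to 7.42). Its interval did not meet that of Apoc4. The authors' posterior SD of the Apoc2 count was 59.5 of 1107 counts in replicate 2 and 4.55 of 13.75 counts in replicate 1. That of Gm44805 was 59.6 counts in replicate 2 and 4.56 in replicate 1, so the values of both are uncertain. On chromosome 9, Apoa1, Apoc3, Apoa4 and Apoa5 lie within 43340 bases and had log2 ratios from 8.04 to 10.09. Their flanking genes Sik3 and Zpr1 both had a log2 ratio of -0.15, with Sik3 at 14.03 TPM in replicate 2, against 18.0 TPM in replicate 1 and Zpr1 at 11.9 TPM in replicate 2, against 15.3 TPM in replicate 1.

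**Figure D5:**
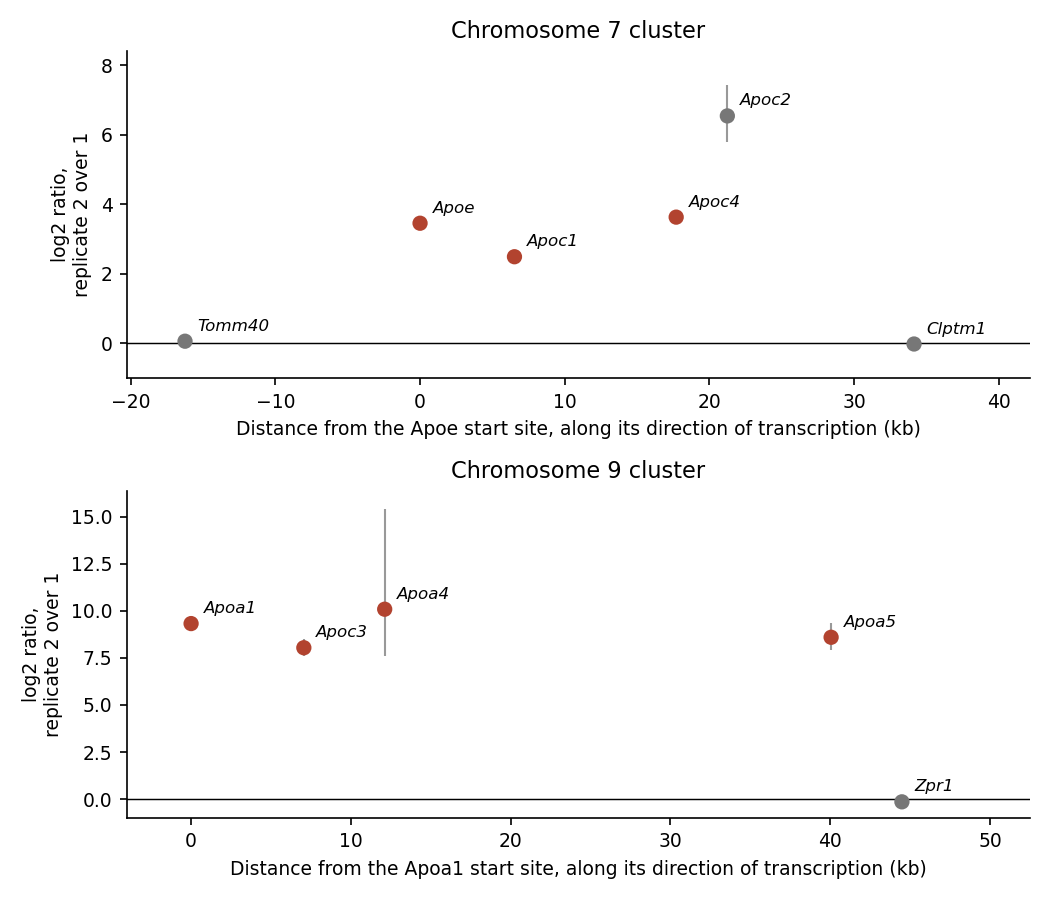
log2 ratio of replicate 2 over replicate 1 for the genes of both clusters, by the distance of each start site from that of Apoe or Apoa1 in kb, with 95% counting intervals. Members are red and other genes grey; Sik3, which starts 215760 bases before Apoa1, lies outside the axis. Members lie at 2.49 to 3.63 on chromosome 7 and at 8.04 to 10.09 on chromosome 9, and Tomm40, Clptm1 and Zpr1 lie near 0.

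The share of each gene's TPM on its transcripts, a readout not used to choose the members, was nearly the same in both libraries for Apoe, Apoc1 and Apoc4. Transcript Apoe-209 carried 80.0% of the Apoe TPM in replicate 2 and 80.4% in replicate 1 in the first quantification. The second quantification placed 90.9% in replicate 2 and 90.3% in replicate 1 on another transcript, Apoe-205, and 0% on Apoe-209 in either library. The 2 transcripts start at different places, chr7:19699008 for Apoe-209 and chr7:19698407 for Apoe-205, so the start in use was not settled by these files. Apoc1-201 carried 97.2% of Apoc1 in replicate 2 and 97.4% in replicate 1 by the first quantification, and 32.4% in replicate 2 and 35.6% in replicate 1 by the second. Apoc4-201 carried 99.5% in replicate 2 and 98.7% in replicate 1 by the first, and 99.3% in replicate 2 and 97.5% in replicate 1 by the second. For the members with few counts in replicate 1 the shares there rest on little: Apoa5-201 led Apoa5 with 48.0% in replicate 2, and Apoa5-203 led it with 53.4% in replicate 1, where the gene had 18 counts.

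Macrophages make Apoe and Apoc1, and their markers were read beside them. All 12 macrophage genes reached 1 TPM in both libraries and none differed 2-fold, with a median log2 ratio of 0.52 (0.17 with spike-in scaling) and log2 ratios from -0.06 to 0.82. They summed to 184 TPM in replicate 2, against 157 TPM in replicate 1. The highest, Cd74, which chaperones MHC class II, stood at 44.7 TPM in replicate 2, against 29.4 TPM in replicate 1. Lyz2, the lysozyme of myeloid cells, stood at 32.0 TPM in replicate 2, against 39.1 TPM in replicate 1. All 6 genes of Kupffer cells, the liver's resident macrophages, were at least 2-fold higher in replicate 2, where 10.2% of all genes compared were. These 6 genes of Kupffer cells summed to 23.9 TPM in replicate 2, against 1.35 TPM in replicate 1. Clec4f, their defining lectin, stood at 9.64 TPM in replicate 2, against 0.12 TPM in replicate 1. The steroidogenic list had a median log2 ratio of -0.63 with none of its 15 genes 2-fold apart, and summed to 8188 TPM in replicate 2, against 14924 TPM in replicate 1. With spike-in scaling 6 of the 15 were at least 2-fold lower in replicate 2. Its highest gene, Hsd3b1, a dehydrogenase of steroid synthesis, stood at 2015 TPM in replicate 2, against 3405 TPM in replicate 1. Star, which carries cholesterol into mitochondria, stood at 1840.0 TPM in replicate 2, against 3265 TPM in replicate 1. The enterocyte list was near 0 in both libraries apart from Fabp2, at 10.1 TPM in replicate 2 and listed at 0 in replicate 1. Of the remaining lists, the 7 Schwann and sustentacular genes summed to 23.1 TPM in replicate 2, against 14.2 TPM in replicate 1, and without Erbb3 the other 6 summed to 10.02 TPM in replicate 2, against 13.2 TPM in replicate 1. The 7 adipocyte genes summed to 1700.3 TPM in replicate 2, against 2382 TPM in replicate 1. The 6 endothelial genes summed to 191 TPM in replicate 2, against 241 TPM in replicate 1, and the 4 erythroid genes to 2483 TPM in replicate 2, against 3915 TPM in replicate 1. Chromaffin genes summed to 1088 TPM in replicate 2, against 1602 TPM in replicate 1, and kidney tubule genes to 0.29 TPM in replicate 2, against 0.47 TPM in replicate 1. Pancreas acinar genes summed to 18.2 TPM in replicate 2, against 17.9 TPM in replicate 1. Nearly all of that sum was Cela1, at 17.6 TPM in replicate 2, against 17.7 TPM in replicate 1. The other pancreas genes were at or under 0.3 TPM in both libraries. The part of any of these cell types in the member values was not tested.

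Most of the other apolipoprotein genes were higher in replicate 2. Of 23, 19 had at least 10 counts, 14 of these were at least 2-fold and 10 at least 10-fold higher in replicate 2, and none was 2-fold lower. Over all genes compared, 10.2% were at least 2-fold higher, 4.20% at least 10-fold higher and 3.93% at least 2-fold lower. Among the 14, Saa1 and Saa2 had no count in replicate 1 and reached 10 counts through replicate 2 alone. Apol7e and Apol10b, also counted, were lower in replicate 2 by the second quantification, at 0.588 against 0.846 TPM and 0.234 against 0.380 TPM. The 2-fold count was 10 with deposited TPM at a pseudocount of 1, 12 by the second quantification and 18 of 23 with no minimum count. Apof, an inhibitor of lipid transfer, stood at 140.0 TPM in replicate 2, against 0.91 TPM in replicate 1. Apom, the carrier of sphingosine 1-phosphate on HDL, stood at 45.2 TPM in replicate 2, against 0.16 TPM in replicate 1. Clu, the chaperone also called apolipoprotein J, stayed high in both libraries, at 203 TPM in replicate 2, against 84.5 TPM in replicate 1 (log2 ratio 1.51). Apoo, a mitochondrial protein despite its name, stood at 25.7 TPM in replicate 2, against 25.9 TPM in replicate 1. Apod, a lipocalin carrier, stood at 0.92 TPM in replicate 2, against 1.29 TPM in replicate 1.

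Receptors for lipoproteins differed less. Of 19 genes, 15 reached 1 TPM in both libraries, 4 were at least 2-fold higher in replicate 2, among them Lsr, Stab2 and Lrp2, and none was 2-fold lower. Over all genes compared, 10.2% were as much higher and 3.93% as much lower. Scarb1, the HDL receptor, stood at 341 TPM in replicate 2, against 736 TPM in replicate 1, a log2 ratio of -0.88 that lies past 2-fold with total-count scaling, spike-in scaling or deposited TPM. Lrp1, the remnant receptor, stood at 87.8 TPM in replicate 2, against 55.5 TPM in replicate 1 (log2 ratio 0.96). Cd36, a fatty acid and lipoprotein scavenger receptor, stood at 135 TPM in replicate 2, against 192 TPM in replicate 1.

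Among 18 genes of lipoprotein assembly, lipolysis and lipid transfer, 11 were at least 2-fold and 8 at least 10-fold higher in replicate 2. Over all genes compared the shares were 10.2% at 2-fold and 4.20% at 10-fold. Mttp, the transfer protein that loads lipid onto Apob, stood at 30.5 TPM in replicate 2, against 3.25 TPM in replicate 1 (log2 ratio 3.68). Lcat, which esterifies HDL cholesterol, stood at 76.2 TPM in replicate 2, against 0.68 TPM in replicate 1. Lpl, lipoprotein lipase itself, stood at 127 TPM in replicate 2, against 205 TPM in replicate 1. Abca1, which loads cholesterol onto Apoa1 and Apoe, stood at 57.1 TPM in replicate 2, against 81.3 TPM in replicate 1.

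Of 18 regulators of lipoprotein genes, 12 were at least 2-fold and 7 at least 10-fold higher in replicate 2, against 10.2% and 4.20% of all genes compared. Hnf4a, the nuclear receptor that drives many liver apolipoprotein genes, stood at 37.2 TPM in replicate 2, against 0.19 TPM in replicate 1. Nr5a1, the steroidogenic factor of the adrenal cortex, stood at 68.9 TPM in replicate 2, against 129 TPM in replicate 1. The liver X receptors, sterol sensors that act on the Apoe cluster in macrophages and fat, were present in both libraries. Nr1h3 stood at 24.5 TPM in replicate 2, against 10.4 TPM in replicate 1, and Nr1h2 at 30.4 TPM in replicate 2, against 32.6 TPM in replicate 1. Their partner Rxra stood at 44.0 TPM in replicate 2, against 15.2 TPM in replicate 1.

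The genes outside the member list whose levels were most like those of 3 members were found by distance on the log2(TPM + 0.1) scale over the 2 libraries. The other members were left out of this search, so a member can lie nearer than the genes named. For Apoa1 they were Ahsg (distance 0.15), Serpina3k (0.26) and Serpina1b (0.90), all genes of secreted plasma proteins. Ahsg stood at 2129 TPM in replicate 2, against 3.30 TPM in replicate 1. For Apoc1 they were Mgst1 (distance 0.82), Ftl1 (1.03) and Ftl1-ps1 (1.10). Mgst1, a microsomal glutathione transferase, stood at 1070.0 TPM in replicate 2, against 424 TPM in replicate 1. For Apoe they were Mgst1 (distance 1.503), the small nuclear RNA gene Gm24497 (1.65) and Scd1 (2.09). No gene outside the member list came as near to Apoe as Ahsg came to Apoa1. Serpina1b and Ftl1-ps1 have near-identical copies, so their values are uncertain. With 2 libraries such likeness is a description of levels only.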

How the data were processed

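Total RNA sequencing of 2 adrenal libraries was analysed, 1 per replicate number of the labels. The authors deposited estimated (expected) counts and TPM values per gene and transcript, the percent of each gene's TPM on each transcript and a posterior SD of each count, per the file headers. They deposited a second set of estimated counts and TPM values per transcript, summed per gene here. The deposited text files name build mm10 and annotation M21; the aligner and the quantifier were not given in the sources used here. The members and gene lists were chosen with earlier results of these data known.

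Expected counts were rounded and scaled with TMM (edgeR 4.0.16). Each ratio is replicate 2 over replicate 1 with a 95% Clopper-Pearson interval (SciPy 1.17.1). Ratios were counted over genes with at least 10 counts in both libraries together. The interval was tried on simulated counts that held counting error only, so that check does not cover spread between libraries. No p-value was computed. Named genes were the members, Alb, the highest genes of each list by mean TPM and genes of the lipoprotein lists by role. The 3 genes outside the member list nearest to Apoe, Apoc1 or Apoa1 were named too. Flanking genes were added by position and other exceptions are marked. Spike-ins took 0.915% of counts in replicate 2 and 0.839% in replicate 1, and entries that name no gene took 6.73 and 8 counts in replicate 2 and replicate 1. These were left out of the scaling totals. DESeq2 1.42.0 size factors were an alternative chosen after seeing the data. Motifs were searched in RefSeq promoter sequence with Biopython 1.88. Some genes and 1 motif searched are not reported here. Protein sequences were not used here; residue numbers are the longest annotated coding lengths.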

Additional observations from a re-analysis of the deposited data

How the results depend on the processing

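All 10 members were at least 2-fold higher in replicate 2 under all 7 other settings tried (total counts, spike-in totals, the second quantification, no minimum count, deposited TPM with a pseudocount of 0.1 or 1, and DESeq2's median-of-ratios size factors). At 10-fold the count was 7 with spike-in totals, 8 with total counts and with deposited TPM at either pseudocount, and 9 otherwise. The number of members at 1 TPM or more in both libraries was 6. It was 3 at 5 TPM, 8 by the second quantification and 9 with TPM taken over nuclear protein-coding genes. Leaving out 1 library at a time gave 6 to 10 members, the 10 being replicate 2 alone. The members' mean share of TPM was 1.55% over nuclear protein-coding genes and 1.06% by the second quantification; single libraries gave 0.0579% to 1.04%. No member's log2 ratio changed sign. The range over settings was 0.36 for Apoe, Apoc1 and Apoc4 and 6.21 for Apoa4, with 1 count in replicate 1, for which a pseudocount of 1 gave 4.05. The median log2 ratio of all genes compared was -0.37 with spike-in totals and -0.24 with total counts, against -0.01. Of all genes 2-fold apart, 72.2% were higher in replicate 2 with TMM, 60.4% with total counts, 51.9% with spike-in totals and 58.3% with no minimum count. The count of Kupffer cell genes 2-fold higher in replicate 2 was 3 of 6 with a pseudocount of 1, against 6. By the second quantification the level of Apoa5 per Alb was 4.61 times as high in replicate 1 as in replicate 2. No paired analysis was possible because the labels give only 1 group. Depth limits Apoa4, Apoa5 and Apoh in replicate 1, with 1, 18 and 28 counts.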
